A study of Mus musculus with 4 samples.

Results

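Convergent gene pairs are neighbours on opposite strands that are transcribed towards each other. The pairs described here run into each other at their 3′ ends and share exonic bases there. They were chosen from the exon coordinates of the annotation alone. A pair had a gene on the plus strand and a gene on the minus strand with at least 1 shared exonic base, the plus gene started before the minus gene and ended inside it, and neither gene had 90% or more of its exonic bases in the other. Chromosomes X and Y and the mitochondrial genome were left out. The rule gave 1351 pairs with 2683 genes, of 4498 autosomal pairs on opposite strands that share exonic bases and of 50600 annotated genes. In 764 pairs both genes were protein-coding, in 491 pairs a single gene was, and in 96 pairs neither was. The shared exonic sequence ran from 1 to 4652 bases with a median of 300, and it made up a median of 9.67% of the exonic bases of the plus gene and 10.7% of those of the minus gene. Chromosome 7 held the most pairs, 133, and chromosome 18 the fewest, 15.

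Transcription of a gene runs past its cleavage site. The 3′ end of an mRNA is made when cleavage and polyadenylation factors read a poly(A) signal, most often AATAAA or ATTAAA, and cut the transcript shortly downstream of it. Where a pair of genes converges, 1 gene's transcript may contain the reverse complement of the end of its neighbour's, and the RNAs can in principle pair as double strands. Such overlaps also matter for counting, because only the strand of a read tells which gene it came from.

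The RNA came from T-helper 2 (Th2) cells, which are CD4 T cells of type 2 immunity. Per the labels these were primary cells from C57BL/6NJ mice, in a single group of 4 biological replicates, with no control, treatment or genotype. Each replicate has its own biosample and all carry the same donor label, and sex was not collected and age is unknown, so nothing shows that the libraries came from separate animals, and p-values measure only how far these libraries scatter, which can be technical. A time of 72 h stands in the file headers, and the assay is total RNA sequencing by its label but poly(A)+ RNA sequencing by the title of its protocol. Replicate 2 held 5016 fragments and was left out, and replicates 1, 3 and 4 held 2388255, 1929880 and 1713199. Wherever 3 values follow each other below, they are those of replicates 1, 3 and 4 in that order. Of the lists of cell markers, 7 of 7 T cell and 6 of 6 Th2 genes lay above 1 TPM, a count scaled by exonic length and library total (limma). The background over all 17740 genes with a count was 34.8% above and 16.1% below. Among these Th2 markers, Ptgdr2, Gata3 and Il5 share exonic bases with a gene on the opposite strand. Of a wider list of 106 T cell genes, 72 lay above 1 TPM, 6 below and 27 on neither side. There Il1rl1, Il17rb and Maf lay on neither side, and Foxp3 lay above at a mean of 91.2 TPM. All 4 B cell and all 3 erythroid markers had no count in these libraries, nor had 4 of 5 myeloid and 2 of 3 natural killer cell markers. In such bulk libraries fewer cells of a type and less RNA per cell cannot be told apart.

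Strand setting 1 was used for counting, per the file headers, which assigns a fragment to a gene when its first read lies on the gene's annotated strand. In the sources used here the strand that the first read of the kit copies is not given. Each count below is the number of fragments assigned to a gene's annotated strand under that setting. A higher or lower count is a statement about that number and need not hold for the amount of the gene's RNA.

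The ends of the genes of 4 pairs are shown because these pairs recur in the results below. Each line gives the last 30 bases of the annotated transcript, 5′ to 3′ on the strand of the gene, with a poly(A) signal in capitals where there is 1. The sequences are from the GENCODE vM21 transcripts (build GRCm38). They lie at chr11:51604460-51604489 (Phykpl, plus strand) and chr11:51600100-51600129 (Hnrnpab, minus strand). The others lie at chr17:12925038-12925067 (Tcp1, plus) and chr17:12923833-12923862 (Acat3, minus), at chr9:66066594-66066623 (Ppib, plus) and chr9:66065176-66065205 (Snx22, minus), and at chr3:89753417-89753446 (Adar, plus) and chr3:89746195-89746224 (Chrnb2, minus).
Phykpl: tttaaatgtAATAAAaacaaaaccccgtct
Hnrnpab: gttttcttaAATAAAttgagggagaccttg
Tcp1: tcagaAATAAAtctgcctgcctttgcctct
Acat3: caccattatgtaaagatgttatctcgaaaa
Ppib: atgctgatcAATAAAgtgggttttttttat
Snx22: ccaaggaacataaAATAAAagatgcccatg
Adar: attcctaaaAATAAAaacactgaagcatca
Chrnb2: aagcattatctaaaaaaaaaaaaaaatctt

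Whole shared stretches of at most 30 bases show how short an overlap can be. They are written on the plus strand, with a signal of the plus gene in capitals, and the minus gene carries the reverse complement. In 370 pairs with a single shared stretch that could be read from the transcripts of both genes, 370 stretches were exact reverse complements. This follows from reading the same bases on opposite strands and checks only the coordinates. The stretch between Bola2, an iron-sulphur cluster factor, and Coro1a, an actin regulator of leukocytes, lies at chr7:126699773-126699798. Those of the other lines lie at chr15:97792664-97792692 and chr7:127800094-127800122.
Bola2 and Coro1a: gtaccagaaAATAAAgccgttttatt
Slc48a1 and Hdac7: aaagcaAATAAAacatatattgttcagaa
Setd1a and 9430064I24Rik: aattgtgATTAAActttattgtacaaaaa
Counts are of whole genes and were not made for the shared stretch alone. Bola2 had 722, 541 and 528 counts and Coro1a had 119, 31 and 58. Bola2 was thus the higher gene in each library. Slc48a1, a haem transporter gene, had 104, 89 and 94 counts, against 36, 19 and 37 for Hdac7, a histone deacetylase gene. Setd1a, a histone methyltransferase gene, had 23, 17 and 16 counts, against 105, 91 and 98 for its antisense neighbour 9430064I24Rik.

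The pairs with the highest summed counts had very unequal partners. The pair with the most counts joined Phykpl, a lysine-breakdown enzyme gene, and Hnrnpab, which encodes an RNA-binding protein of messenger particles. These genes share 809 exonic bases on chromosome 11 between 51600100 and 51604489 (mm10). Phykpl had 38416, 32171 and 26001 counts, and Hnrnpab had 1033, 592 and 438. The groups of values did not overlap, and the log2 ratio of Phykpl to Hnrnpab was 5.62 ± 0.33 (SE, n = 3, adjusted p = 2.2e-06, edgeR's quasi-likelihood test with Benjamini-Hochberg adjustment over all opposite-strand pairs). All p-values of single pairs below are from this fit.

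The counts of both genes were also far apart in the other pairs described from the top 10. Rpl23a, a large-subunit ribosomal protein gene, had 826, 337 and 409 counts against 27670, 22921 and 18228 for Tlcd1. Hsp90b1, a chaperone of the endoplasmic reticulum, had 482, 197 and 296 counts against 20246, 21002 and 14135 for 1810014B01Rik. In each of these pairs the partner was higher in all 3 libraries. Ppib, which encodes a cyclophilin of the secretory pathway, had 57, 16 and 34 counts against 11261, 9698 and 8385 for Snx22, a sorting nexin gene, a log2 ratio of Snx22 to Ppib of 8.19 ± 0.43 (SE, n = 3, adjusted p = 1.7e-06, edgeR). Tcp1, a chaperonin subunit gene, had 2243, 1701 and 1437 counts against 12081, 10946 and 8502 for Acat3, an acetyl-CoA acetyltransferase gene. This was the narrowest gap among these pairs, with a log2 ratio of Acat3 to Tcp1 of 2.56 ± 0.24 (SE, n = 3, adjusted p = 2.1e-05, edgeR). Psmb8 and Hif1a had far lower counts than their uncharacterised neighbours. Psmb8, an immunoproteasome subunit gene, had 116, 56 and 66 counts against 9577, 9430 and 7388 for Gm20496. Hif1a, the oxygen-regulated transcription factor gene, had 155, 61 and 115 counts against 10575, 11394 and 8412 for Gm15283.

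The last of these pairs joined RNA-binding proteins to their neighbours. G3bp2, a stress granule factor gene, had 39, 10 and 33 counts against 9517, 8198 and 6410 for Gm26582, with which it shares 2050 bases. Pcbp2, a poly(C)-binding protein gene, had 229, 140 and 155 counts against 9624, 7353 and 6593 for Map3k12, a kinase gene. No library of the lower gene reached any library of the higher gene in these pairs. Unequal partners were called in 91% of all opposite-strand pairs tested (edgeR), so unequal counts are not particular to these pairs. The share of all pairs whose libraries were apart was not counted.

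**Figure D1:**
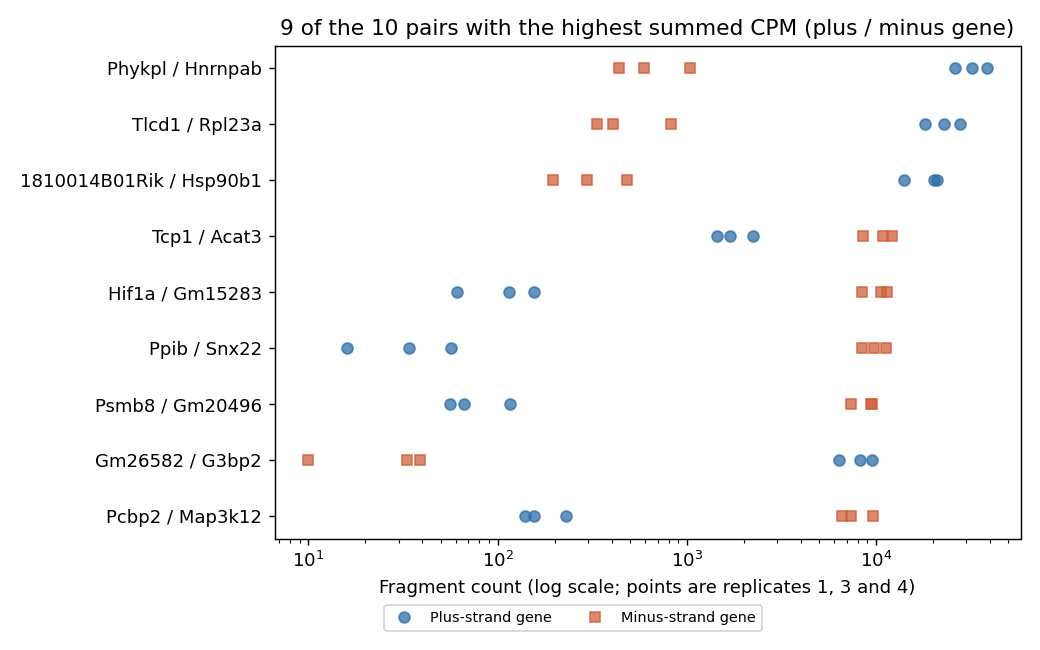
Fragment counts on a log axis of both genes of 9 of the 10 convergent pairs with the highest summed counts scaled to library size; each point is a library (replicates 1, 3 and 4), circles are plus-strand genes and squares are minus-strand genes. Phykpl lies between 26001 and 38416 and Hnrnpab between 438 and 1033, and in all 9 pairs the points of both genes are apart.

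Across all pairs, unequal partners were the rule, and this held for opposite-strand pairs of every kind. At least 1 fragment was found in 1219 of the 1351 pairs, in both genes of 1089 and in a single gene of 130, while 132 pairs had none. Of the 1043 pairs with 30 or more counts over the 3 libraries, 938 (89.9%) had partners that differed in count at an adjusted p under 0.05 (edgeR). The background over all 2993 opposite-strand pairs tested was 91%, so this share is not particular to convergent pairs. The plus gene was higher in 487 and the minus gene in 451, against backgrounds of 46.4% and 44.5% of the pairs tested. A called difference of 10-fold or more was found in 577 pairs (55.3%, background 62.9%) and of 100-fold or more in 148 (14.2%, background 18.5%). The median size of the log2 ratio was 3.73 in convergent pairs, 4.15 in pairs that overlap at their 5′ ends (divergent pairs) and 4.28 in all pairs. The sign of the ratio was the same in all 3 libraries in 988 of the 1043 pairs. Across the 1351 pairs, the Spearman correlation between the counts of the plus and the minus gene was 0.443, 0.356 and 0.437; the points share a locus and a library.

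**Figure D2:**
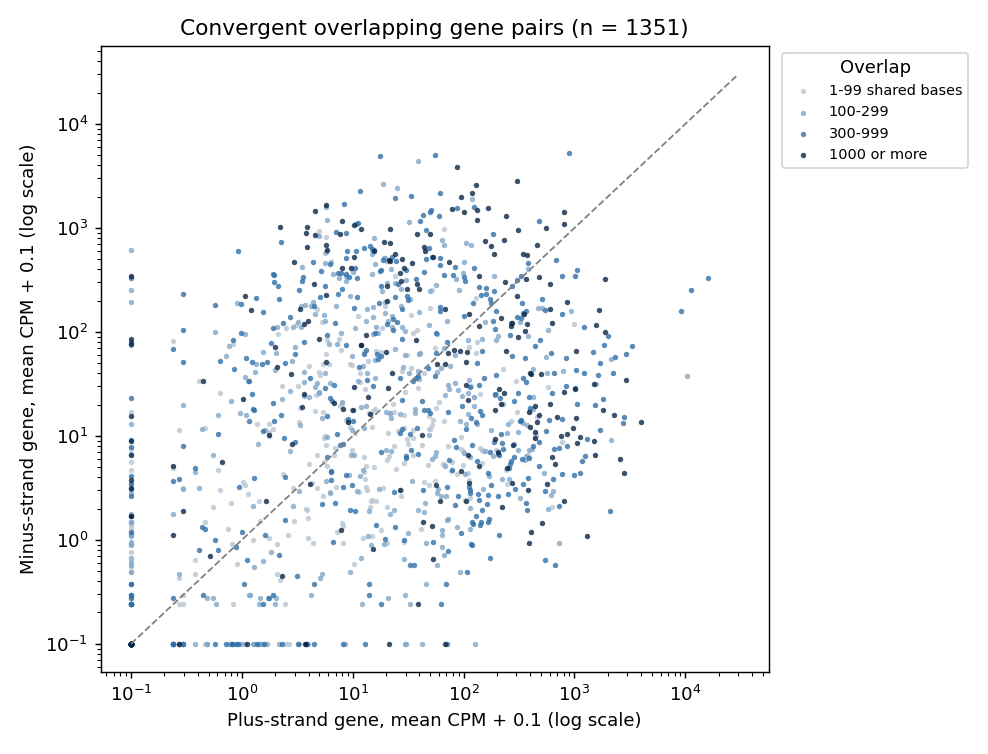
Mean CPM (count scaled to the library total) plus 0.1 of the plus-strand gene against the minus-strand gene on log axes for the 1351 convergent pairs, averaged over replicates 1, 3 and 4; shade gives the number of shared exonic bases and the dashed line marks equal counts. Most pairs lie off the dashed line on both sides, and the darker points of long overlaps lie farther from the lower left corner.

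The widest ratios mostly set a characterised protein-coding gene against an uncharacterised neighbour. Fen1, the flap endonuclease gene of DNA replication and repair, had 12, 3 and 11 counts, and Gm10143 had 7082, 4885 and 4877. The log2 ratio of Gm10143 to Fen1 was 9.35 ± 0.41 (SE, n = 3, adjusted p = 1.4e-06, edgeR), and 78.8% of the exonic bases of Fen1 lie in the overlap. Mob3a had 19, 9 and 9 counts against 6000, 5035 and 4410 for Gm26541. On the other strand, Arfgap2, an Arf GTPase-activating protein gene, had 13, 5 and 9 counts against 3551, 2892 and 2435 for 1110051M20Rik. Genes of mitochondrial metabolism were among them too. Mpc1, a subunit gene of the mitochondrial pyruvate carrier, had 6, 3 and 4 counts against 1667, 1535 and 1168 for 4930506C21Rik. Cox5a, a subunit gene of cytochrome c oxidase, had 23, 4 and 9 counts against 3770, 3051 and 2811 for Gm26631. Rassf1, a Ras-association domain gene, had 8, 5 and 9 counts against 2479, 2000 and 1647 for Gm9917. In each of these pairs the uncharacterised gene was the higher one. At 3 to 23 counts per library, the counts of the lower genes carry a counting error that is large beside their size. The pair of Ubxn11 and Sh3bgrl3 also ranked here, with 4945, 4150 and 3805 counts for Ubxn11 and 25, 4 and 25 for Sh3bgrl3, over an overlap of 188 bases.

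Balanced pairs also existed among well-counted genes. Usp16, a deubiquitinase gene, had 183, 109 and 116 counts and Cct8, a chaperonin subunit gene, had 231, 84 and 117, so which gene was higher differed between libraries. Dalrd3 had 622, 521 and 510 counts and Wdr6, a gene linked to tRNA modification, had 726, 548 and 429. Selenoo, a selenoprotein gene, had 733, 582 and 525 counts and Tubgcp6, a gamma-tubulin complex gene, had 768, 642 and 518. The ranges of both genes overlapped in each of these pairs, and the adjusted p-values were 0.99, 0.94 and 0.76 (edgeR). Mtf1, a metal-response transcription factor gene, had 762, 665 and 541 counts against 977, 604 and 527 for 1110065P20Rik. C030014I23Rik had 81, 73 and 56 counts against 71, 71 and 58 for Gm47205. These 5 pairs were the nearest to a ratio of 1 among the 766 pairs with 300 or more counts, which is how they were picked. The balance holds for counts of whole genes and not per exonic base. On that scale the log2 ratio of plus to minus gene was -2.17 for Mtf1, -1.62 for Usp16, 1.03 for Selenoo and 0.74 for Dalrd3, all called (adjusted p = 2.8e-05, 0.00032, 0.0013 and 0.0095, edgeR), and C030014I23Rik was not called at -0.47.

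Counts per pair were higher in pairs with longer overlaps. The median summed CPM (the count scaled to the library total) of both genes was 21.1 ± 3.49 (SD, n = 3 libraries) in the 280 pairs that share fewer than 100 bases and 48.9 ± 2.71 in the 395 that share 100 to under 300. It was 142 ± 6.31 in the 448 pairs with 300 to under 1000 shared bases and 354 ± 19.9 in the 228 with 1000 or more. Tail-to-tail neighbours with a gap were lower, and these were taken only from genes that share no exonic base with any opposite-strand gene. Their median was 3.99 ± 0.80 CPM at a gap of 1 to 500 bases (363 pairs), 2.16 ± 0.99 above 500 and up to 1000 (241 pairs) and 0.841 ± 0.325 above 1000 and up to 5000 (1595 pairs). Genes of overlapping pairs could have further opposite-strand partners, so gap and overlap classes differ in more than distance. The order of the 4 overlap classes was the same in each library. Divided by the exonic bases of both genes, the medians were 2.88 ± 0.23, 5.85 ± 0.075, 16.3 ± 0.571 and 27.8 ± 1.56 CPM per kilobase (SD, n = 3) over the overlap classes. Divided by the shared bases alone, the order was the opposite, at 1562, 679, 587 and 499 counts per shared kilobase in replicate 1, and likewise in the other libraries. The medians of the classes with a gap above 500 bases are near or below 3 counts per library, so the order of these 2 classes is weakly resolved.

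The log2 difference between the longest and the shortest overlap class was 3.84, 4.44 and 3.94 in the 3 libraries, a mean of 4.07 ± 0.32 (SD, n = 3, exact two-sided sign-flip permutation test, p = 0.25). With 3 libraries 0.25 is the smallest p that this test can give. Protein-coding pairs alone gave 4.23 ± 0.39 (SD, n = 3, exact p = 0.25). Their medians went from 25.7 ± 6.09 CPM (197 pairs) to 85.5 ± 4.76 (185 pairs), 235 ± 14.3 (237 pairs) and 472 ± 5.97 (145 pairs) over the overlap classes. Coding neighbours with a gap stood at 7.55 ± 1.64, 4.74 ± 1.45 and 4.94 ± 1.58 CPM from the nearest to the farthest class.

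**Figure D3:**
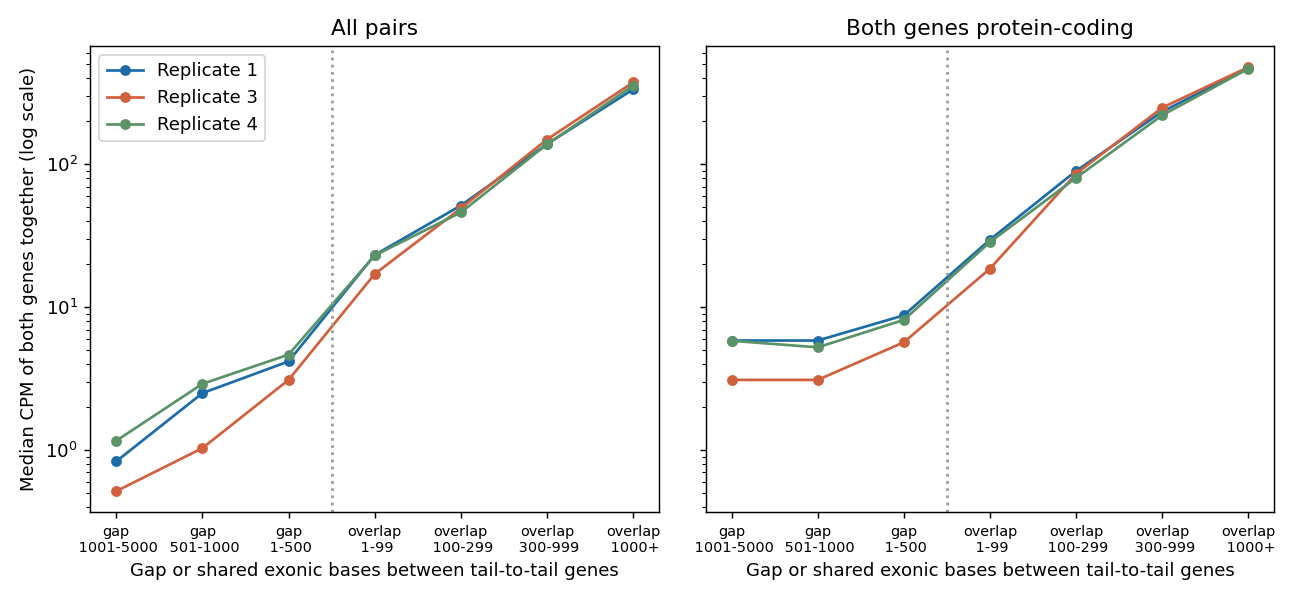
Median CPM of both genes of a pair on a log axis by the gap or the number of shared exonic bases, for all tail-to-tail pairs (left) and those with both genes protein-coding (right); each line is a library and the dotted line parts gaps from overlaps. Pairs with a gap hold only genes without opposite-strand exons. The medians are higher with each of the 4 overlap classes in each library, and reach 354 for all pairs and 472 for coding pairs on average at 1000 or more bases.

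As a description across the 1351 pairs, the Spearman correlation of the summed count with the number of shared exonic bases was 0.373, 0.387 and 0.374. With the genomic span of the overlap, introns included, it was 0.171, 0.196 and 0.177. With the other exonic bases of the pair, outside the overlap, it was 0.202, 0.192 and 0.203. In the 764 coding pairs the correlation with the shared bases was 0.499, 0.517 and 0.4997, whereas that with the other exonic bases was 0.0483, 0.0506 and 0.0564. Pairs of a library share its depth. For counts per exonic base of both genes, a measure chosen after seeing the data, the mean correlation with the shared bases was 0.311 over the 1351 pairs. The part of exon length in these correlations was not tested. For the 2111 genes whose only opposite-strand partner was the convergent one, a gene's count correlated with the overlap at 0.256, 0.263 and 0.259 and with its own remaining exonic bases at 0.143, 0.114 and 0.146. The GC content of the shared stretch had a median of 36.2% in the 370 readable pairs and correlated with the overlap length at 0.494 and with the summed count at 0.173, 0.193 and 0.176. Its part in the relation of counts and overlap was not tested.

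The higher gene of a pair differed more between overlap classes than the lower gene. The median CPM of the higher gene, taken in each library, went from 16.3 ± 2.49 (SD, n = 3) below 100 shared bases to 42.0 ± 2.35, 128 ± 6.08 and 292 ± 14.9 over the classes. The lower gene went from 3.04 ± 0.84 to 2.78 ± 0.65, 5.35 ± 1.49 and 11.4 ± 1.79. Between the first and the second class of lower genes the means differed by less than their SD. Unequal pairs of 10-fold or more made up 34.8% of the 198 pairs tested below 100 bases, 57.2% of 278, 61.6% of 365 and 61.4% of the 202 at 1000 or more. More counts make a difference easier to call, and the median size of the log2 ratio was 2.48, 3.72, 4.46 and 4.21 over the same classes.

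**Figure D4:**
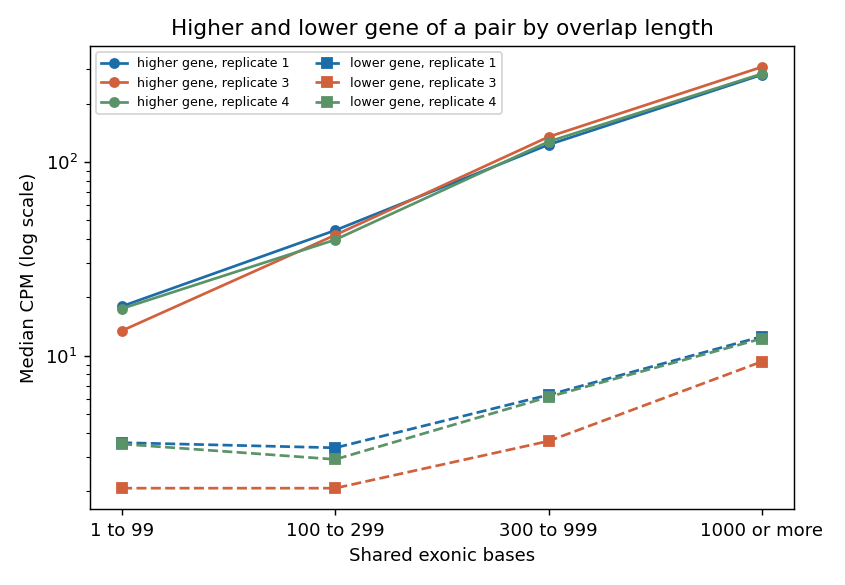
Median CPM on a log axis of the higher gene (circles, solid lines) and the lower gene (squares, dashed lines) of convergent pairs by shared exonic bases, with a colour for each of replicates 1, 3 and 4. The higher gene reaches 292 on average in the last class and the lower gene 11.4, and replicate 3 has the lowest line for the lower gene.

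The longest overlaps held wide as well as narrower ratios. Pstk, a kinase gene of selenocysteine synthesis, and Ikzf5, an Ikaros family zinc finger gene, share 4652 bases, with 1472, 1134 and 1024 counts for Pstk and 45, 33 and 42 for Ikzf5. Nr2c2, an orphan nuclear receptor gene, and Mrps25, a mitochondrial ribosomal protein gene, share 4590 bases, with 219, 188 and 191 counts for Nr2c2 and 3184, 2915 and 2422 for Mrps25. At the other end, 2810002D19Rik and Api5, an apoptosis inhibitor gene, share 1 base, and they had 80, 96 and 83 against 82, 66 and 88 counts, which were not called different (adjusted p = 0.62, edgeR), although per exonic base 2810002D19Rik was called higher at a log2 ratio of 1.29 (adjusted p = 0.0018, edgeR). Palm3 and Il27ra, the interleukin-27 receptor gene, share 2 bases, and Palm3 had 239, 206 and 214 counts against 12, 5 and 9. Ttc19, a gene for assembly of respiratory complex III, shares 1 exonic base with the corepressor gene Ncor1 although their spans overlap over 12026 bases. Ncor1 was higher, at 506, 393 and 379 counts against 304, 266 and 212 (log2 ratio 0.71 ± 0.20, SE, n = 3, adjusted p = 0.010, edgeR), a call that was lost without replicate 1 or 4 and with DESeq2, and the ratio turned to the other side per exonic base.

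Genes of convergent pairs held more counts than their number or length would give at equal shares. They were 5.30% of all genes and 9.90% of the exonic length, and they held 43.4%, 45.1% and 43.1% of all counts, a mean of 43.9% ± 1.07 (SD, n = 3). The excess was not theirs alone. Genes of nested or contained pairs outside the other pair classes, 5.59% of genes and 7.88% of the exonic length, held 31.0% ± 1.18, and divergent pair genes outside convergent pairs held 14.5% ± 0.505. Genes with opposite-strand exons thus held most of the counts, and genes without opposite-strand exons, 75.8% of all genes, held 7.47% ± 1.78. The median convergent gene had 13.4, 10.9 and 13.4 CPM, the median divergent gene 2.93, 2.07 and 2.92, and the median gene of tail-to-tail neighbours with a gap of 1 to 1000 bases 0.837, 0.518 and 0.584, which is below the floor of 3 counts (1.26, 1.55 and 1.75 CPM). The median gene without opposite-strand exons had no count, so no fold is given against it. The neighbours with a gap are part of that class. On the log2(CPM + 0.1) scale convergent genes were 2.22 ± 0.10 above divergent genes (SD, n = 3, exact two-sided sign-flip permutation test, p = 0.25) and 4.10 ± 0.23 above the neighbours with a gap (exact p = 0.25). The difference had the same sign in 3 of 3 libraries in each case.

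Per length, 1567 of the 2290 convergent genes with a count (68.4%) lay above 1 TPM, 145 below it and 578 on neither side (limma, Benjamini-Hochberg adjustment over all 17740 genes with a count), while 393 had no count. The background over all genes with a count was 34.8% above and 16.1% below. Of divergent pair genes 53.0% lay above 1 TPM, of neighbours with a gap 32.3%, and of genes without opposite-strand exons 21.8%. Among the protein-coding genes of convergent pairs 66.0% lay above, against 31.6% of all protein-coding genes with a count.

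The lower and the higher partner differed in kind. In the 352 tested pairs of a protein-coding gene with a gene of another biotype, the protein-coding gene had the lower count in 308, the higher count in 25, and no called difference in 19. Unequal pairs made up 91% of all opposite-strand pairs tested. The side was read in convergent pairs only, and whether its order is particular to them was not tested. The median log2 ratio of the coding to the other gene was -4.67, -5.22 and -4.56 in the 3 libraries, a mean of -4.81 ± 0.35 (SD, n = 3, exact two-sided sign-flip permutation test, p = 0.25). Pairs were also read by which gene has the larger share of its exons in the overlap. Over all 1043 tested pairs that gene was higher in 553, lower in 385 and not called in 105, with a median log2 ratio of 1.23. It was higher in 280, lower in 309 and not called in 84 of 673 tested coding pairs.

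The poly(A) signal showed an order as well. The last 40 bases of the annotated transcript were searched for AATAAA and ATTAAA on the strand of the gene. AATAAA was found in 55.6% of 1893 protein-coding genes of convergent pairs, ATTAAA alone in 13.5% and neither in 30.9%. Neither was found in 28.2% of coding neighbours with a gap, in 24.1% of coding divergent genes, in 31.2% of coding genes without opposite-strand exons and in 55.8% of the 670 convergent genes of other biotypes. In 448 tested pairs with a signal in a single gene, the gene with the signal was lower in 300, higher in 115 and not called in 33, with a median log2 ratio of -2.66. Among the 272 such pairs with both genes coding, it was lower in 174, higher in 74 and not called in 24, with a median of -1.92. Other opposite-strand pairs were not read in this way, so the order is not shown to be particular to convergent pairs. Among the ends printed above, Tcp1 and Adar carry AATAAA and had the lower count, opposite Acat3 and Chrnb2 whose last bases hold neither signal, while Phykpl and Hnrnpab as well as Ppib and Snx22 carry it in both genes. A match is a description of the annotated end and was not tested against a measured cleavage site. The strand orientation of the libraries was not tested as a part of these orders.

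**Figure D5:**
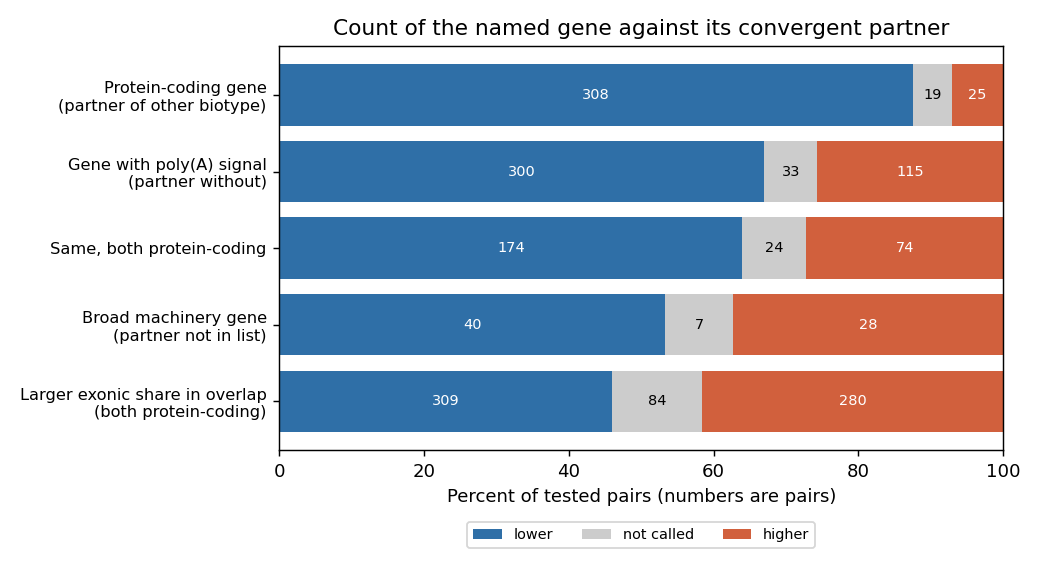
Percent of tested convergent pairs in which the gene named at the left had the lower, a not called or the higher count against its partner (edgeR, adjusted p under 0.05), with the number of pairs in each bar segment. The coding gene was lower in 308 pairs and higher in 25, whereas the bar for the larger exonic share is nearly even at 309 and 280.

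Genes of broad cellular machinery, which most cells express, were found on both sides of such pairs. The list was matched by gene name and covers genes named for the ribosome, proteasome, spliceosome, respiratory chain and similar complexes. With such a gene and a partner outside the list, 75 convergent pairs were tested. Unequal pairs made up 91% of all opposite-strand pairs tested, so calls as such are not particular to these pairs, and only their side is read here. The list gene was lower in 40, higher in 28 and not called in 7, with a median log2 ratio of partner to list gene of 1.12, 1.63 and 1.48 in the libraries (mean 1.41 ± 0.26, SD, n = 3, exact two-sided sign-flip permutation test, p = 0.25). Where the list gene was lower, the median overlap was 381.5 bases and 10 of the 40 partners were not protein-coding. Where it was higher, the median overlap was 260 bases and 1 of the 28 partners was not.

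Groups of the list differed in their counts. Of 9 cytosolic ribosomal protein genes 7 were lower and 2 higher. Rpl32 had 401, 136 and 203 counts against 2289, 1699 and 1893 for Cand2. Rpl22l1 had 12, 5 and 12 counts against 1842, 1763 and 1429 for Gm33051. In both pairs the libraries of the partners were apart. Rps25 and Rps28 were the higher ones, Rps25 with 1322, 841 and 725 counts against 378, 306 and 326 for Ccdc84. Of 4 proteasome genes 3 were lower, among them Psmb7 with 34, 24 and 22 counts against 6341, 5720 and 4359 for the kinase gene Nek6. Of 4 splicing factor genes 3 were lower, among them Srsf4 with 432, 213 and 172 counts against 6475, 4574 and 4595 for Gm12992. Of 11 genes grouped by name as respiratory chain genes 6 were lower, 3 higher and 2 not called. They include Ndufaf3 and Cox15, which were higher, and Cox11, which was lower, and these are not subunits of the chain. The 6 genes grouped by name as translation initiation and elongation factors stood on the other side, with 0 lower and 6 higher. They include Eif2ak1, a kinase gene, and Eef2kmt, a methyltransferase gene, which are not such factors. The narrowest log2 ratios of partner to list gene were -0.52 for Eif3j1 and -0.65 for Eef2kmt (adjusted p = 0.048 and 0.018, edgeR). Eif5b, a subunit-joining factor gene, had 1257, 883 and 875 counts against 82, 82 and 71 for Rev1, a translesion polymerase gene. Eif4a2, an RNA helicase gene, had 366, 263 and 277 counts against 12, 2 and 5 for Rfc4, a clamp loader gene. Of 8 mitochondrial ribosomal protein genes 3 were lower, 3 higher and 2 not called. Of 13 genes grouped by name as RNA polymerase subunits and general transcription factors 6 were lower, 6 higher and 1 not called. The higher ones include Gtf2ird2, which is not a general transcription factor. Taf10, a TFIID subunit gene, was among the higher, at 6951, 5319 and 4994 counts against 688, 592 and 525 for the kinase gene Ilk. Gtf3a, the 5S RNA transcription factor gene, was among the lower, at 401, 326 and 270 against 3698, 2998 and 2769 for Mtif3. The differences between these groups were not tested.

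Genes of T cell identity and signalling took part in 9 tested pairs, of which 8 are described. Ptgdr2, the prostaglandin D2 receptor gene of Th2 cells, had 145, 97 and 97 counts against 14, 2 and 5 for Ccdc86 over 1031 shared bases. Stat6, the transducer of interleukin-4 signals, had 67, 17 and 30 counts against 223, 211 and 209 for Nab2, with which it shares 40 bases. Stat5a and Stat3, transducers of cytokine signals that share 72 bases, had 111, 58 and 62 against 277, 152 and 198. Both STAT pairs kept their order in each library, with log2 ratios of Nab2 to Stat6 of 2.63 ± 0.37 and of Stat3 to Stat5a of 1.46 ± 0.22 (SE, n = 3, adjusted p = 0.00026 and 0.00039, edgeR). The next 2 pairs also had a list gene on the lower side. Il12rb2, a receptor chain for the Th1-promoting interleukin-12, had 41, 25 and 30 counts against 5095, 5044 and 3638 for the RNA-binding protein gene Serbp1. Ikzf2, which encodes Helios, had 2, 3 and 1 against 38, 25 and 21 for Gm29114. Junb, an AP-1 factor gene, was the higher partner, with 709, 307 and 285 counts against 77, 51 and 68 for Prdx2. Cd247, the zeta chain gene of the T cell receptor, and Pou2f1 share 3007 bases and had 943, 645 and 618 against 652, 723 and 549 counts. Their order changed in replicate 3, and the pair was not called (adjusted p = 0.45, edgeR) but was called without that library and per exonic base, where the log2 ratio of Cd247 to Pou2f1 was 1.82 (adjusted p = 0.00010, edgeR) in place of 0.18. Jak1, a kinase gene of cytokine receptors, had 47, 12 and 54 counts against 8, 14 and 21 for Raver2 (adjusted p = 0.041, edgeR), and its call was lost without replicate 1 or 4 and with both other tools.

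Factors that make 3′ ends are themselves found in convergent pairs. Of 30 genes of 3′-end processing and termination 16 lay above 1 TPM, 0 below and 14 on neither side (limma, backgrounds 34.8% above and 16.1% below), and 6 took part in 7 convergent pairs. Pcf11, a termination factor gene, converges on Gm26944, an antisense gene, and on 6430511E19Rik, whose biotype in the annotation awaits experiments. Its counts of 71, 62 and 59 lay below the 190, 160 and 147 of Gm26944 and above the 18, 12 and 8 of 6430511E19Rik. Ssu72, a phosphatase gene of the polymerase tail, had 39, 20 and 27 counts against 1629, 1240 and 1154 for 1500002C15Rik. Cpsf7, a cleavage factor gene, had 21, 8 and 16 counts against 815, 673 and 507 for Tmem216. Ppp1ca, a phosphatase gene, had 321, 211 and 191 counts against 4539, 3570 and 3235 for the checkpoint gene Rad9a. In these 3 pairs the processing gene was the lower by far. Cpsf1, the large cleavage factor subunit gene, had 17, 12 and 9 counts against 22, 26 and 26 for Adck5 over 8 shared bases (adjusted p = 0.044, edgeR), a call that was lost without replicate 3 or 4, with both other tools and without the count filter. Fip1l1, another subunit gene, had 182, 69 and 99 counts against 237, 206 and 146 for Lnx1 (adjusted p = 0.026, edgeR), and its call was lost without replicate 4 and with DESeq2.

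Genes that sense or edit double-stranded RNA were read because overlapping transcripts could form it. Of 20 such genes 4 lay above 1 TPM, 1 below and 13 on neither side (limma), and 2 had no count, against backgrounds of 34.8% above and 16.1% below among all genes with a count. Of the 4 in convergent pairs, 3 are described, and they were named after their values were seen. Adar, the RNA editing enzyme gene, had 13, 2 and 12 counts against 1772, 1695 and 1636 for Chrnb2, a nicotinic receptor gene known from neurons, over 1365 shared bases (log2 ratio of Chrnb2 to Adar 7.59 ± 0.45, SE, n = 3, adjusted p = 2.3e-06, edgeR). Ago2, an Argonaute gene, had 76, 20 and 49 counts against 907, 942 and 696 for Chrac1. Ilf2 had 64, 52 and 50 counts against 407, 284 and 304 for Snapin.

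Genes with a pair of convergent partners show how 1 gene's count stood to each of them, and 19 genes had such partners. Ccdc167 had 3369, 2969 and 2565 counts and was above both Cmtr1, an mRNA cap methyltransferase gene at 331, 266 and 206, and Gm28043 at 92, 107 and 100. Capn15, a calpain gene, had 6, 2 and 4 counts and was below both D630044L22Rik at 590, 398 and 366 and Gm26694 at 1663, 1099 and 1083. Ssb, which encodes the La RNA-binding protein, had 268, 145 and 196 counts and was below Mettl5, an RNA methyltransferase gene at 1231, 880 and 767. It did not differ in a called way from its other partner Gm13625, at 429, 222 and 218 counts (adjusted p = 0.064, edgeR). That holds for counts of whole genes and not per exonic base, as Ssb has 2160 exonic bases and Gm13625 has 480. Lsr had 25, 31 and 26 counts and was below both Gm4673 at 761, 674 and 504 and Gm17077 at 699, 525 and 411. Ncaph2, a condensin II subunit gene, had 852, 621 and 578 counts and was above Tymp at 21, 7 and 9 and Sco2 at 478, 355 and 306, although the order with Sco2 turned per exonic base. Counts of genes with several opposite-strand partners are uncertain as values of 1 pair, and 834 of the 1351 pairs had no other such partner.

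The limit of 90% that parts convergent from nested pairs cut through a continuous range. Just inside it lay Ssb and Gm13625, with 89.8% of Gm13625 in the overlap and 429, 222 and 218 counts for Gm13625, then Abhd1 and Preb with 89.6% of Abhd1, and Pus3 and Hyls1 with 88.1% of Pus3. Just outside lay Apoa4 and Gm10680 at 90.03%, with no count in either gene, A930015D03Rik and H2-T22 at 90.3%, and Slc25a35 and Rangrf at 90.7%.

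The spread of convergent genes between libraries was small, and replicate 3 differed in the share of the lower gene. The biological coefficient of variation over replicates 1, 3 and 4 was 0.122 in 1678 convergent genes with a mean count of 10 or more. It was 0.163 in nested or contained genes, 0.176 in divergent genes and 0.423 in genes without opposite-strand exons. Counts were scaled to the library total, of which convergent genes held a mean of 43.9%, so the spread of a class depends on this scaling. The classes were not matched for count level. Over all their genes the median in replicate 1 was 13.4 CPM for convergent and 2.93 CPM for divergent genes. The log2 ratio of partners had a median SD between libraries of 0.396 in convergent pairs and 0.535 in divergent pairs. Among the 766 pairs with 300 or more counts, the lower gene held a median of 5.36%, 4.11% and 5.21% of the pair's counts. Its share was lowest in replicate 3 in 441 of these pairs, in replicate 1 in 173 and in replicate 4 in 152. The share of genes without opposite-strand exons was 5.45% in replicate 3, below the 8.82% of replicate 1 and the 8.14% of replicate 4. Whether both shifts have the same source was not tested.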

How the data were processed

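The authors deposited raw fragment counts per gene for each of 4 libraries, which featureCounts 1.4.6-p4 made on GENCODE vM13 exons after STAR alignment to mm10, per the file headers. Both mates had to map and strand setting 1 was used, per the file headers. Symbols, biotypes and transcript sequences came from GENCODE vM21 by gene identifier, and 50376 of 50600 identifiers had a symbol. Pairs and shared exonic bases were computed from the exon coordinates of the files in Python 3.11.15 (scipy 1.17.1, numpy 2.4.6, pandas 2.3.3).

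Unequal partners were tested with edgeR 4.0.16 in R 4.3.3 (quasi-likelihood, Benjamini-Hochberg at 0.05), with each opposite-strand pair of 30 or more counts as a feature and library and strand side as terms. The threshold of 1 TPM was tested in limma 3.58.1 (log2 of TPM + 0.1). Class differences used the exact sign-flip permutation test over libraries. DESeq2 1.42.0, limma on ratios, other filters, scalings and left-out libraries were the alternatives, and those on biotype and poly(A) signals and on genes with a single partner were chosen after seeing the data. Both models were also run on simulated counts with a single dispersion each. Unchanged pairs were simulated with equal partners and genes with a single length, unlike these data. The runs therefore do not give error rates for the calls reported here. The labels name no molecular identifiers, so count errors cover counting only.

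Pairs were named by rule: the 10 with the highest summed CPM, the 5 widest called ratios in each direction with 3 or more counts per gene and library, and the 5 most balanced with 300 or more counts. The rule added the 3 longest and 3 shortest overlaps, every pair with a T cell or 3′-end processing gene, up to 12 with a broad machinery gene, and 5 genes with several partners. Some pairs covered by the rule are not reported here. Other pairs were named after their values were seen. The members and lists were chosen with earlier results of these data known.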

Additional observations from a re-analysis of the deposited data

Results flagged for a closer look

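Replicate 2 stood apart from the other libraries in 4 of 6 measures with a value in each of the 4 libraries, and chance alone picks out about 1 in 20 groups by this criterion. It found 25.5% of the convergent pair genes with a count, far from the other libraries. Its differences between the median convergent gene and the genes without opposite-strand exons, the divergent genes and the neighbours with a gap were 0 each, since the medians in all classes had no count among its 5016 fragments. The share of its counts in convergent pair genes was 42.2%.

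Convergent pairs on chromosomes X and Y, which no comparison used, also held counts. Their 28 pairs with 56 genes took 50817, 41796 and 40483 counts in replicates 1, 3 and 4, or 2.13%, 2.17% and 2.36% of all.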

How the results depend on the processing

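The number of unequal pairs stayed within 1.5 times of 938 under DESeq2, limma, other filters, TMM scaling, division by exonic length and with replicate 2, and leaving out a library gave 883 to 945. Keeping pairs without another opposite-strand partner, where fewer pairs could be tested, left 535 unequal pairs, 23 with the machinery gene lower, 152 with the coding gene lower and 169 with the poly(A) signal gene lower; with both genes coding the last was 174. With replicate 2, 743 convergent genes lay above 1 TPM in place of 1567. The mean correlation of counts with overlap, 0.378, became 0.181 with the span, 0.506 in coding pairs, 0.416 in pairs of 30 or more counts, 0.311 for counts per exonic base of both genes (chosen after seeing the data), 0.255 and 0.272 for the plus and the minus gene alone, and 0.361 with replicate 2. Class differences kept their sign under all alternatives run, but their size depends on the pseudocount, and against genes without opposite-strand exons it was 6.98 at 0.1 and 3.76 at 1.

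Some of the 63 named pairs changed sign, most of them near balance, and Ncaph2 with Sco2 and Ttc19 with Ncor1 although called. Per exonic base, 6 named pairs gained a call without a change of sign, and the pairs of Dalrd3 and Selenoo gained a call with a changed sign. On that scale the log2 ratio of plus to minus gene became -0.47 for C030014I23Rik and Gm47205, 0.74 for Dalrd3 and Wdr6, -1.02 for Ncaph2 and Sco2, 1.03 for Selenoo and Tubgcp6 and 0.74 for Ttc19 and Ncor1. Leaving out a library moved it from -0.0043 to 0.12 for C030014I23Rik, from -0.15 to 0.088 for Dalrd3 (0.0063 without replicate 3), from -0.17 to 0.088 for Mtf1, from -0.19 to 0.18 for Usp16 (0.0065 without replicate 4) and from -0.060 to 0.25 for 2810002D19Rik. The sign turned without replicate 1 for the first 4 and without replicate 3 for the last. Usp16 also stood at 0.0036 with DESeq2 and 0.0088 with limma. Calls of Ncaph2 and Sco2 without replicate 4 were lost, and Ssb and Gm13625 were called without replicate 3. The cause was not tested.

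No paired analysis was possible because the labels give a single group, so that no groups share replicate numbers. Genes were compared within each library. Depth limits lower genes with few counts, whose ratios are imprecise. Annotated ends, not measured ones, define each overlap.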
